A study of Mus musculus with 6 samples.

Results

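The Bcl2 family decides whether the outer mitochondrial membrane is opened during apoptosis, and 10 of its genes were followed here in pressure-overloaded mouse hearts. They were taken by gene name from a table of 54532 genes, and comprised the anti-apoptotic Bcl2, Bcl2l1 and Mcl1, the pore-forming Bax, Bak1 and Bok, and the BH3-only Bid, Bad, Bbc3 and Bcl2l11. All 10 were among the 14774 genes with enough reads to be tested, at 44 to 7266 reads per library.

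RNA was sequenced from the left ventricles of 3 TG and 3 NTG male mice, 4 weeks after aortic banding (AB), a narrowing of the aorta that loads the left ventricle with pressure. TG mice carried the genotype HINT2CTG-Myh6Cre, in which a CAG-HINT2 transgene is switched on in cardiomyocytes by a Cre recombinase under the Myh6 promoter after tamoxifen at 5 mg/kg/d for 7 days, and NTG mice were labelled C57BL/6J. Mice were 8 to 10 weeks old at surgery, and all 6 had AB, so the data hold no unloaded heart. Whether the NTG mice carried Myh6Cre or received tamoxifen is not given in the sources used here, nor is the litter of any animal. Effects of the transgene, Cre, tamoxifen and litter therefore cannot be told apart, and p-values rest only on the spread between these 6 samples. The comparison asks whether the genes of mitochondrial apoptosis differed when HINT2, a nucleotide hydrolase of mitochondria, was overexpressed in the loaded heart.

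Anti-apoptotic members hold the death-promoting ones in check on the outer mitochondrial membrane. BH3-only proteins are sensors of stress, which bind the anti-apoptotic members or activate Bax and Bak directly, and the pore then lets cytochrome c out to assemble the apoptosome. Cardiomyocytes divide little, and Mcl1 in particular is needed for their survival in mice, while Bbc3 (also called PUMA) is a classical target of p53 and is also induced by stress of the endoplasmic reticulum.

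All members share a short helix, the BH3 motif, by which they bind one another. The codons of its core are shown for 2 anti-apoptotic members (Mcl1 and Bcl2), 1 pore-forming member (Bax) and 3 BH3-only members (Bid, Bbc3 and Bcl2l11), with those for the conserved leucine and aspartate in capitals.
Mcl1: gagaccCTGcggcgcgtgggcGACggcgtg
Bcl2: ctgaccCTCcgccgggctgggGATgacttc
Bax: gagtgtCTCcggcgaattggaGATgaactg
Bid: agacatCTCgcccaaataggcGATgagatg
Bbc3: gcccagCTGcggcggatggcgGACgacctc
Bcl2l11: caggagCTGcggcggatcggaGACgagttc
These 30-base coding stretches were read 5′ to 3′ on the sense strand from GENCODE M21 transcripts (GRCm38). That of Mcl1 lies in exon 1 on the plus strand at chr3:95659430-95659459 and that of Bcl2 in exon 1 on the minus strand at chr1:106712578-106712607. Bax and Bid have theirs on the minus strand in exons 3 and 4, at chr7:45466000-45466029 and chr6:120897292-120897321. Those of Bbc3 and Bcl2l11 lie on the plus strand, both in exon 3, at chr7:16313767-16313796 and chr2:128147144-128147173. The search asked for a leucine codon, any 3 codons, a glycine, alanine or serine codon and an aspartate codon, and it found 1 match in each of the 10 members. Such a match is common by itself, as 34.0% of 21504 mouse coding sequences held one. Among the 10 members, Bbc3 and Bcl2l11 were the closest pair, with 21 of 30 bases identical, whereas Mcl1 and Bid shared 12 of 30.

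The targeted gene was read first. Hint2 had 12, 545 and 559 counts in NTG 1, NTG 2 and NTG 3, and 793, 828 and 859 in TG 1, TG 2 and TG 3. The library labelled NTG 1 therefore stood far below the other NTG libraries, against its label, and the fold change of each member is given with and without it. Over all genes it also lay nearer to the TG libraries, with a chi-square per gene of 16.5 to 25.9 against them and of 30.7 and 65.1 against NTG 3 and NTG 2. On the first principal component it scored −5.08, the other NTG libraries 55.7 and 29.3, and the TG libraries −36.5 to −10.7. Whether its label is right was not tested, and every NTG mean below includes it. Libraries held 14863568 to 17581220 counts, of which mitochondrial genes took 13.4% to 19.2% in NTG and 16.0% to 21.5% in TG. Cardiomyocyte markers summed to 18350–31140 CPM (counts relative to the library total after scaling by the trimmed mean of M-values, TMM) in NTG and 29780–36980 in TG, with all 7 fitted higher in TG and 2 of them at an unadjusted p under 0.05. All 6 fibroblast markers were lower in TG at that threshold, and their sum was 4520–10660 CPM in NTG against 2184–3835 in TG, without overlap. Erythroid markers (5 of 5 lower) summed to 1310–2245 CPM in NTG and 762–908 in TG, also without overlap. Macrophage markers (3 of 5 lower) overlapped between groups, at 242–516 CPM in NTG and 208–251 in TG. Neutrophil markers (3 of 4 lower) overlapped as well, with 9.15, 241 and 36.6 CPM in NTG 1, 2 and 3 and 8.36 to 16.4 in TG. The smooth muscle and pericyte sum overlapped, but 2 of its 4 markers were higher at that threshold, and Acta2 (83.5–88.6 CPM in NTG, 114–120 in TG) and Myh11 (38.8–61.7 and 78.7–93.0) did not overlap, whereas Tagln (0.463–1.78 and 0.494–1.08) and Rgs5 (842–1130 and 933–1137) did. Endothelial (1 of 5 higher) and lymphocyte sums (0 of 2 tested) overlapped, and atrial markers were highest in NTG 1 at 67.5 CPM and TG 3 at 167 CPM. The part of these shifts in the results for the members was not tested, and in whole ventricle fewer cells of a type and less RNA per cell cannot be told apart.

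No member passed the test between TG and NTG hearts. Genes were called where edgeR's quasi-likelihood test gave an adjusted p below 0.05 with an absolute log2 difference above 0.5, and 0 of 10 members met this, as did 0 of 14774 genes (0%). DESeq2 also called 0 of 10 members, against 583 genes of the whole table (3.95%), 228 higher (1.54%) and 355 lower (2.40%). Without the library labelled NTG 1, edgeR called 404 genes higher and 432 lower and 0 of the 10 members. At an unadjusted edgeR p under 0.05, where 18.6% of all genes lay, 1 member was higher in TG, Bbc3 (8.83% of all genes were), and 0 were lower (9.76%). The groups did not overlap for 1 member higher in TG, Bbc3 (11.2% of all genes), and 1 lower, Mcl1 (12.3%). The fitted difference was above 0 for 2 members and below 0 for 8, with a median log2 fold change of −0.11 against −0.01 over all genes tested. Of all genes tested, 7196 lay above 0 and 7578 below. Among the 8 members, Bcl2l1, Bax and Bak1 changed direction when some libraries were left out.

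**Figure D1:**
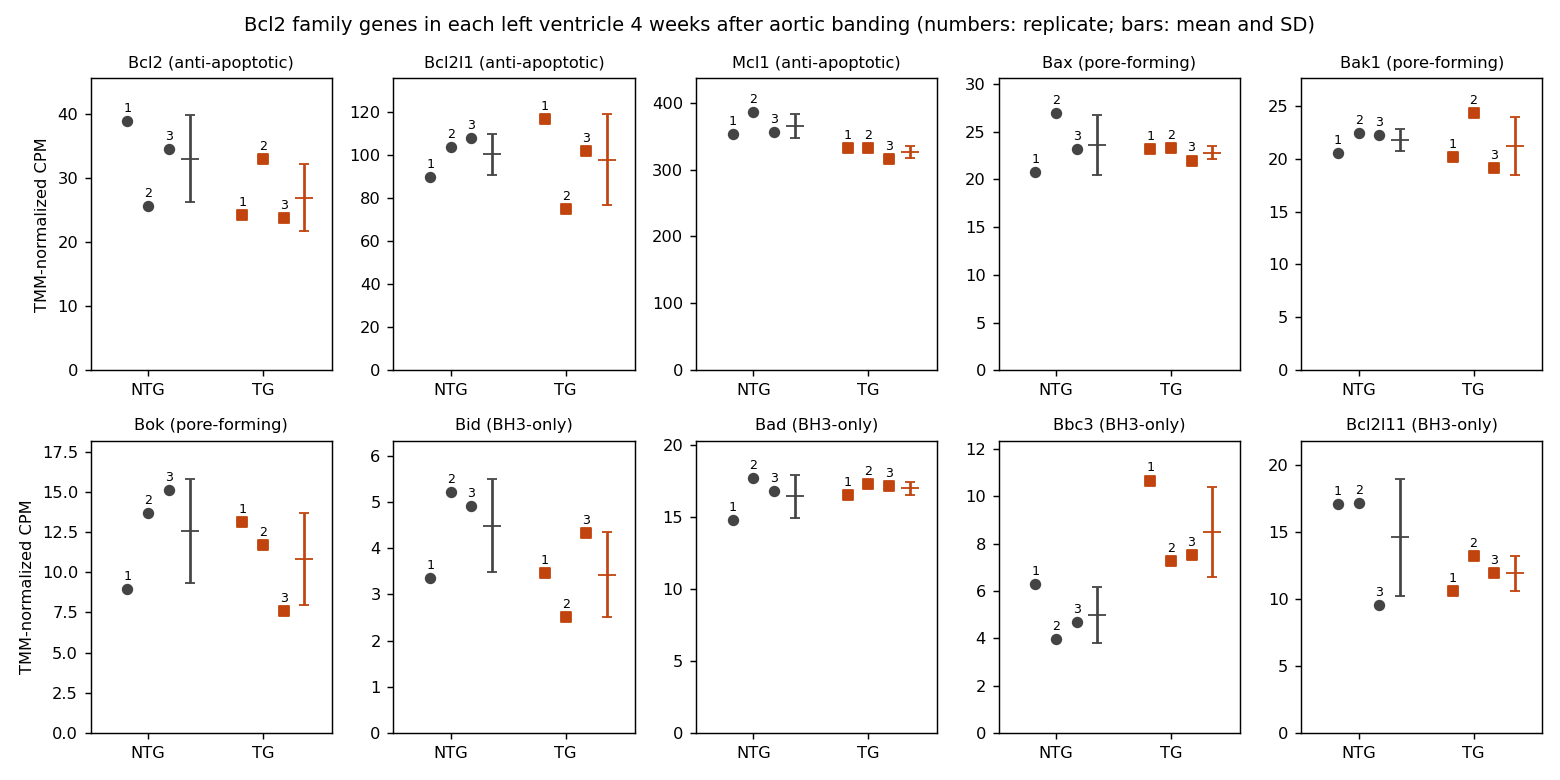
Level of each member in CPM, 1 panel per gene with its own axis, for the 3 NTG and 3 TG hearts (points: libraries; bars: mean and SD). Bbc3 lies higher in every TG heart than in any NTG heart, Mcl1 lies lower, and the other 8 members overlap.

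Mcl1, the short-lived anti-apoptotic protein that binds Bak1 and most BH3-only proteins, had 354, 386 and 357 CPM in NTG 1, 2 and 3, and 332, 332 and 316 CPM in TG 1, 2 and 3. Every TG library was below every NTG library, and both groups were tight. The mean was 365 ± 17.9 CPM in NTG and 326 ± 9.19 in TG (SD, n = 3 each), a log2 fold change of −0.16 (SE 0.10, 95% interval −0.40 to 0.08; edgeR adjusted p = 0.417). Without the library labelled NTG 1 it was −0.19. Its exact two-sided permutation p was 0.1, the smallest that 3 against 3 libraries allow.

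Bcl2, the founding member, had 39.0, 25.7 and 34.5 CPM in NTG and 24.2, 33.0 and 23.8 CPM in TG. NTG 2 lay among the low TG libraries and TG 2 among the high NTG ones, so the groups overlapped. Its log2 fold change was −0.29 (SE 0.19, 95% interval −0.73 to 0.15; edgeR adjusted p = 0.424). Leaving out 1 library moved this value in both directions, to −0.16 without NTG 1, −0.22 without TG 1 and −0.21 without TG 3, and to −0.44 without NTG 2 and −0.46 without TG 2. The edgeR adjusted p lay between 0.242 (without TG 2) and 0.693 (without TG 3).

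Bcl2l1, which encodes Bcl-xL and its short pro-apoptotic form from the same gene, had 89.7, 104 and 108 CPM in NTG and 117, 75.0 and 102 CPM in TG. TG libraries held both the highest and the lowest value. Its log2 fold change was −0.04 (SE 0.16, 95% interval −0.42 to 0.34; edgeR adjusted p = 0.914), and −0.12 without NTG 1. Its direction was not stable to the library left out, at −0.19 without TG 1 and 0.12 without TG 2. Counts per gene do not separate the forms.

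The groups overlapped for all 3 pore-forming members. Bax, which moves from the cytosol to mitochondria when activated, had 20.8, 27.0 and 23.1 CPM in NTG and 23.2, 23.3 and 22.0 CPM in TG. The TG libraries fell inside the NTG range, and the log2 fold change was −0.05 (SE 0.12, 95% interval −0.33 to 0.23; edgeR adjusted p = 0.841), or −0.14 without NTG 1 and 0.05 without NTG 2. Bak1, its partner resident in the outer membrane, had 20.6, 22.5 and 22.2 CPM in NTG and 20.2, 24.3 and 19.1 CPM in TG. Here the NTG range lay inside that of TG, with a log2 fold change of −0.04 (SE 0.12, 95% interval −0.32 to 0.25; edgeR adjusted p = 0.897). It was −0.08 when NTG 1 was left out and 0.03 when TG 3 was. Bok, which can form pores without BH3-only proteins, had 8.94, 13.7 and 15.1 CPM in NTG and 13.1, 11.7 and 7.59 CPM in TG. One library of each group was low (NTG 1 and TG 3), so the log2 fold change of −0.22 carried a wide interval (SE 0.26, −0.82 to 0.37; edgeR adjusted p = 0.662). It was −0.42 without NTG 1 and −0.39 without TG 1, but −0.16 without NTG 2, −0.07 without NTG 3 and −0.02 without TG 3.

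Bbc3 was the BH3-only member with the largest difference. It had 6.28, 3.98 and 4.69 CPM in NTG 1, 2 and 3 (92, 75 and 81 reads) and 10.7, 7.28 and 7.53 CPM in TG 1, 2 and 3 (148, 128 and 122 reads). All 3 TG hearts were above all 3 NTG hearts, with TG 1 and NTG 1 the highest of their groups. Means were 4.98 ± 1.18 and 8.49 ± 1.89 CPM (SD, n = 3 each), a log2 fold change of 0.77 (1.71-fold; SE 0.24, 95% interval 0.22 to 1.32). The edgeR p was 0.0119 and the adjusted p 0.204, so the difference missed the threshold, and the exact two-sided permutation p was 0.1. DESeq2 gave a log2 fold change of 0.78 with an adjusted p of 0.0787.

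Bbc3 passed in 1 setting, which changed both the test and the libraries and in which 11.7% of all genes were called. Without the library labelled NTG 1, its log2 fold change was 0.97 with an adjusted p of 0.0119 in DESeq2, which passed, and 0.0571 in edgeR, which did not. Without TG 1, the log2 fold change was 0.57 and the unadjusted edgeR p 0.0529. Over all 20 alternative settings it stayed between 0.57 and 0.97, and its adjusted p between 0.0119 and 0.473.

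For the other BH3-only members the groups overlapped. Bcl2l11, which encodes Bim, had 17.1, 17.2 and 9.55 CPM in NTG and 10.6, 13.2 and 11.98 CPM in TG, so that NTG 3 was the lowest of all libraries. Its log2 fold change was −0.29 (SE 0.23, 95% interval −0.82 to 0.24; edgeR adjusted p = 0.513), and was −0.52 without NTG 3 (edgeR adjusted p = 0.395). Without NTG 1 or NTG 2 it was −0.17 or −0.15, so the difference changed with the NTG library left out. Bid, which is cut by caspase 8 and so links death receptors to mitochondria, was the lowest member, with 3.35, 5.20 and 4.92 CPM in NTG and 3.46, 2.50 and 4.32 CPM in TG. NTG 1 lay among the TG libraries, and the log2 fold change of −0.39 had the widest interval of the 10 (SE 0.28, −1.04 to 0.25; edgeR adjusted p = 0.461). It was −0.56 without NTG 1, −0.60 without TG 3 and −0.21 without TG 2. Bad, which is kept inactive by phosphorylation downstream of Akt, had 14.8, 17.7 and 16.8 CPM in NTG and 16.5, 17.3 and 17.2 CPM in TG. The TG libraries were inside the NTG range, with a log2 fold change of 0.05 (SE 0.12, 95% interval −0.22 to 0.31; edgeR adjusted p = 0.852), or −0.03 without NTG 1.

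**Figure D2:**
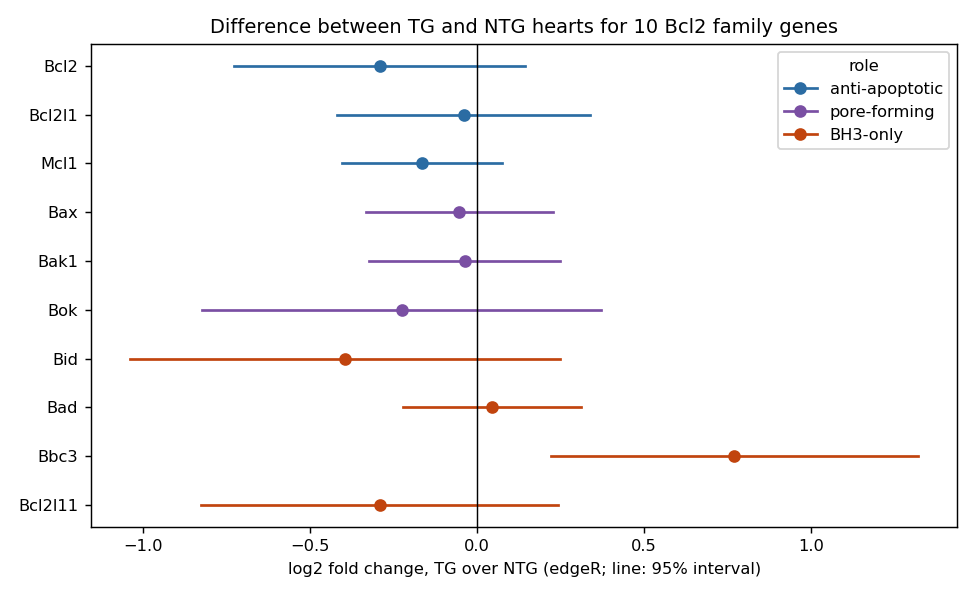
Log2 fold change of TG over NTG for the 10 members (points: edgeR estimate; lines: 95% interval; colours: role). The interval of Bbc3 alone lies off 0, and it is unadjusted for the number of genes; those of Bid and Bbc3 extend beyond 1 log2 unit.

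The intervals set how large a difference these libraries could have missed. For 8 of 10 members the 95% interval lay within 1 log2 unit of 0, so a doubling or halving fell outside it, and for 5 (Bcl2l1, Mcl1, Bax, Bak1 and Bad) it lay within 0.5 units. Members also differed in how evenly they were expressed among hearts of 1 group. The coefficient of variation in NTG ran from 4.79% for Bak1 to 30% for Bcl2l11, and in TG from 2.55% for Bad to 26.6% for Bok.

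Levels can be compared between genes only after division by gene length, here as CPM per kb of the gene model. Mcl1 was the most abundant member at 101 CPM per kb, above 97.1% of all genes tested, and no library of another member reached its range of 92.4 to 113. Bcl2l1 followed at 21.6, then Bax at 14.7, Bak1 at 8.92, Bad at 8.34 and Bok at 6.36 CPM per kb. Bcl2 itself stood at 3.28, beside Bbc3 at 3.17, while Bcl2l11 reached 1.65 and Bid 1.115 CPM per kb, Mcl1 being 90.8-fold above Bid. In this order the library ranges separated Mcl1 from Bcl2l1 and Bax from Bak1, and all other neighbours overlapped. The order of Bcl2 and Bbc3 differed between groups, with means of 3.61 and 2.35 CPM per kb in NTG and 2.948 and 3.999 in TG. This order rests on gene model lengths of 9157 bases for Bcl2 and 2124 for Bbc3. By CPM alone, Bcl2 lay above Bbc3 in both groups, at 33.1 against 4.98 in NTG and 27.0 against 8.49 in TG. Within the anti-apoptotic sum, Mcl1 made up 80.7% ± 1.29 in NTG and 79.8% ± 2.82 in TG (SD, n = 3 each).

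**Figure D3:**
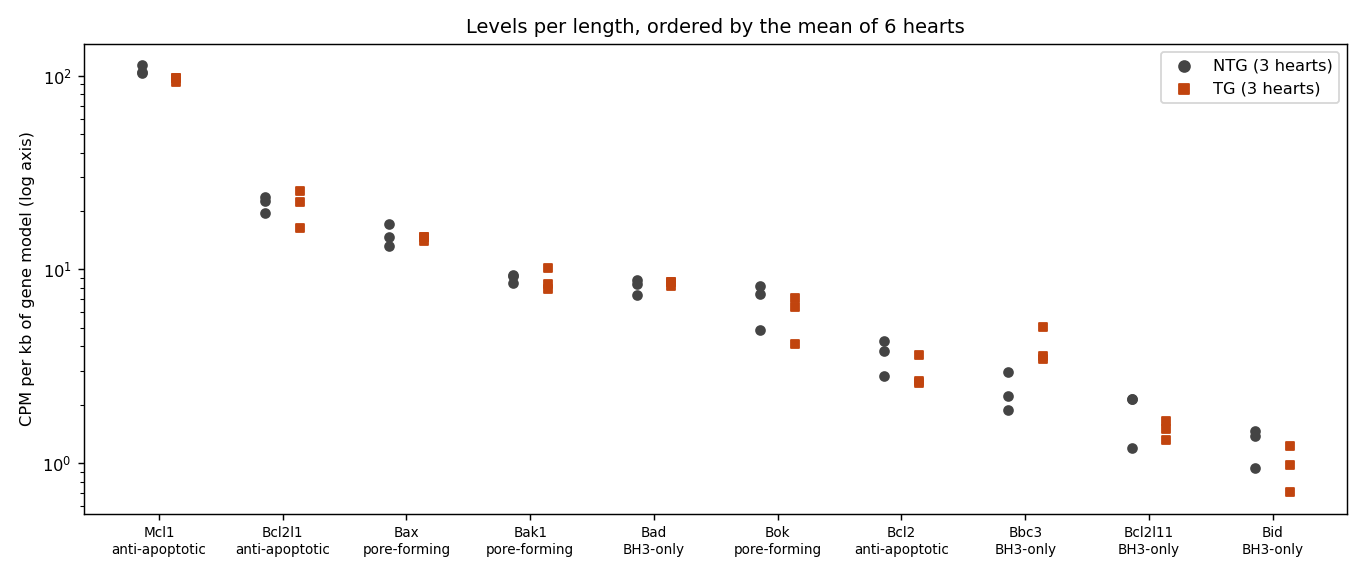
CPM per kb of gene model on a log axis for the 10 members, ordered by their mean over 6 hearts (circles: NTG; squares: TG; 3 each). Mcl1 stands at 92.4 to 113 CPM per kb, apart from all others, and Bcl2 and Bbc3 lie side by side near 3.2.

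Ratios within a library do not depend on the scaling between libraries, and are given as descriptions without a test. The ratio of Bax to Bcl2, a common summary of the balance between death and survival, was 3.09, 6.10 and 3.89 in NTG and 5.57, 4.10 and 5.37 in TG. The groups overlapped, with means of 4.36 ± 1.56 and 5.01 ± 0.799 (SD, n = 3 each). Bax to Bcl2l1 (0.685 ± 0.0681 and 0.704 ± 0.174), Bax to Mcl1 (0.140 ± 0.0122 and 0.152 ± 0.000583) and Bcl2l11 to Mcl1 (0.0170 ± 0.00490 and 0.0156 ± 0.00173) overlapped as well. Sums by role, unlike ratios, depend on that scaling. The anti-apoptotic members reached 127, 138 and 132 CPM per kb in NTG and 125, 117 and 117 in TG, all TG values lying lower. Mcl1 made up the largest part of this difference, with means of 106.9 in NTG and 95.48 in TG. Means were 21.9 and 21.32 for Bcl2l1 and 3.612 and 2.948 for Bcl2. The BH3-only members summed to 13.4, 14.3 and 13.2 CPM per kb in NTG and 15.6, 14.4 and 14.8 in TG, all TG values lying higher. Bbc3 carried this rise, with means of 2.346 in NTG and 3.999 in TG. Bad differed less, at 8.202 and 8.473, and Bcl2l11 (1.819 and 1.485) and Bid (1.264 and 0.9657) were lower in TG. The higher BH3-only sum was therefore not a shift shared by its members. With CPM by library size alone, a setting added after the data were seen, the BH3-only sums overlapped, at 13.2, 15.3 and 13.6 in NTG and 14.4, 14.7 and 14.3 in TG, while the anti-apoptotic sums remained without overlap. The pore-forming sums overlapped, at 30.9 ± 3.82 and 29.2 ± 2.78 CPM per kb.

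Further ratios were chosen after the values of Bbc3 and Mcl1 had been seen, and so restate their differences. Summed BH3-only to summed anti-apoptotic levels were 0.105, 0.104 and 0.100 in NTG and 0.124, 0.123 and 0.126 in TG, with narrow spread in both groups. Summed anti-apoptotic to summed pore-forming levels overlapped, at 4.79, 4.08 and 4.10 in NTG and 4.13, 3.75 and 4.51 in TG. Bbc3 to Mcl1 was 0.0286, 0.0166 and 0.0212 in NTG and 0.0518, 0.0353 and 0.0384 in TG, and Bbc3 made up 17.3% ± 4.51 of the BH3-only sum in NTG and 26.7% ± 4.88 in TG. Bbc3 to Bcl2 was 0.695, 0.668 and 0.585 in NTG and 1.90, 0.951 and 1.37 in TG, values that depend on the gene lengths used. Bad, the largest BH3-only transcript by this measure, held 60.1% ± 4.53 and 56.9% ± 3.59 of the sum, overlapping between groups.

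**Figure D4:**
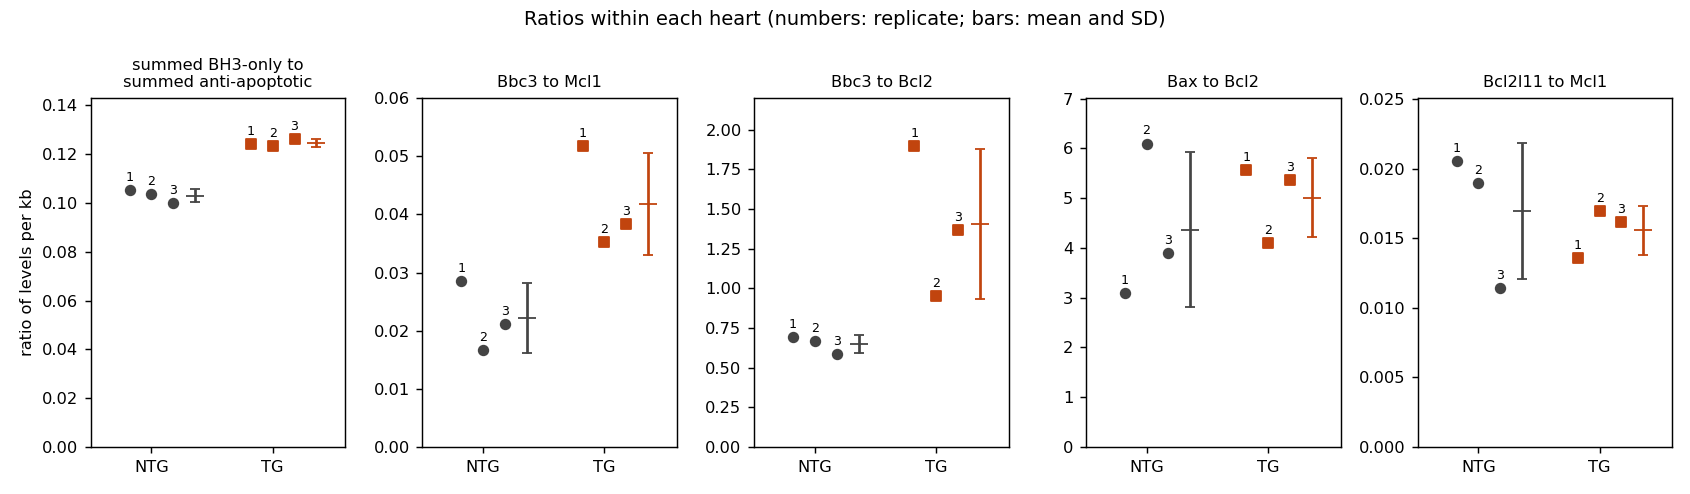
Ratios of levels per kb within each heart (numbers: replicate; bars: mean and SD of 3 hearts), each panel with its own axis from 0. The ratio of BH3-only to anti-apoptotic sums and those of Bbc3 to Mcl1 and Bcl2 separate the groups, whereas Bax to Bcl2 and Bcl2l11 to Mcl1 overlap.

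Read sharing limits some members. Exons of Bid overlap those of Bcl2l13 on the opposite strand over 628 bases, exons of Bad those of Gpr137 over 524 bases, and exons of Bak1 those of Ggnbp1 over 437 bases. No strand setting is given for the counting, so reads from these stretches cannot be told apart, and Bcl2l13 with 1301 to 1616 counts per library far exceeded Bid with 44 to 98. No annotated gene overlaps Bbc3 (chr7:16308393-16318205, plus strand), Mcl1 (chr3:95658788-95663176, plus strand), Bcl2l1, Bok or Bcl2l11, and those over Bcl2 and Bax had at most 1 count in any library.

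The genes around the family were read in 7 lists of 97 genes, of which 89 were tested. No gene was called by edgeR with all libraries, and 5 were called without NTG 1: Bnip3, Bnip3l, Apaf1 and Tnfrsf1a as lower and Endog as higher, where 5.52% of all genes were called. At an unadjusted p under 0.05, 6 of 89 were higher and 9 lower, near the shares over all genes (8.83% and 9.76%), with a median log2 fold change of −0.01. DESeq2 called 4 of 89, also near its share over all genes (3.95%), with Xaf1 and Tnfsf10 higher and Bnip3 and Tnfrsf1a lower. In DESeq2 without NTG 1, Xaf1 (adjusted p = 0.102) and Tnfsf10 (0.153) were no longer called, whereas Bnip3 and Tnfrsf1a still were. The 8 genes not tested had at most 23 counts in any library, among them the death ligands Fasl and Tnf, named here only as untested.

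Among 12 tested relatives of the family, 3 were lower at that threshold (9.76% of all genes) and 0 were higher (8.83%). Bnip3 and Bnip3l, BH3-related receptors that mark mitochondria for mitophagy, lay lower in every TG library. Bnip3 had 114, 167 and 164 CPM in NTG and 98.6, 94.6 and 110 CPM in TG, a log2 fold change of −0.55 (SE 0.15; adjusted p = 0.196 in edgeR, 0.0196 in edgeR without NTG 1, 0.0463 in DESeq2). Bnip3l had 65.8, 86.1 and 74.1 CPM in NTG and 55.3, 56.9 and 57.9 CPM in TG, a log2 fold change of −0.41 (SE 0.11; edgeR adjusted p = 0.196, and 0.0348 without NTG 1). The third, named after its values were seen, was the BH3-only Bmf at −0.89, whose groups overlapped. Bcl2l2, the remaining widely expressed anti-apoptotic relative, stood at −0.07 (95% interval −0.26 to 0.12), and Pmaip1, the p53-induced BH3-only gene also called Noxa, at −0.51 (95% interval −1.43 to 0.40) with 16 to 59 counts. Both of these too were named after their values were seen.

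Downstream of the pore, 2 of 12 apoptosome and caspase genes were lower (9.76% of all genes) and 0 higher (8.83%) at the unadjusted threshold. They were Apaf1, the scaffold of the apoptosome, at −0.40 (SE 0.14), and Gsdme, a pore protein cut by caspase 3, at −0.73 (SE 0.24), both without overlap. The edgeR adjusted p was 0.213 for Apaf1 and 0.211 for Gsdme, and 0.0377 and 0.132 without NTG 1. Of 10 genes listed as inhibitors of apoptosis, proteins released from mitochondria or genes related to them, 3 were higher (8.83% of all genes) and 0 lower (9.76%). Endog, a mitochondrial nuclease, had 28.8, 17.8 and 22.0 CPM in NTG and 41.3, 29.9 and 35.7 CPM in TG (log2 fold change 0.64, SE 0.19; edgeR adjusted p = 0.203, and 0.0332 without NTG 1), and Aifm2, named after its values were seen, had a log2 fold change of 0.30. Xaf1, an interferon-induced antagonist of Xiap, had 18.9, 12.4 and 15.04 CPM in NTG and 28.9, 21.4 and 69.7 CPM in TG. Its log2 fold change was 1.38 with all libraries and 0.70 without TG 3, which alone held the high value.

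At the outer membrane, where Vdac channels and fission proteins meet the family, 0 of 8 genes passed in either direction, and Mff had the smallest p with a log2 fold change of 0.21 (SE 0.11). In the death receptor list, 1 of 12 was higher and 1 lower, near the shares over all genes (8.83% and 9.76%). Tnfsf10, which encodes the ligand TRAIL, had 14.5, 9.98 and 14.6 CPM in NTG and 20.3, 19.8 and 52.6 CPM in TG (log2 fold change 1.25, and 0.63 without TG 3), so the same library was high as for Xaf1. Tnfrsf1a, the main TNF receptor, had 109, 176 and 152 CPM in NTG and 90.3, 102 and 91.5 CPM in TG (log2 fold change −0.62, SE 0.17; adjusted p = 0.196 in edgeR, and 0.0179 without NTG 1).

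Of 20 factors and enzymes that act on the family, 2 were higher and 2 lower at the unadjusted threshold, near the shares over all genes (8.83% and 9.76%). Akt1, the kinase that phosphorylates Bad, had a log2 fold change of 0.38 (SE 0.13), and Ddit3, the endoplasmic reticulum stress factor CHOP, one of 0.55 (SE 0.20) with overlapping groups. Pim1 and Stat3, a kinase and a transcription factor of cytokine signalling, had −0.54 (SE 0.23) and −0.31 (SE 0.12). Pim1 was highest in NTG 2 at 45.2 CPM against 26.1 and 25.9 in NTG 1 and NTG 3, and its log2 fold change was −0.22 without NTG 2. Of 15 other p53 targets, 1 was lower (9.76% of all genes), Zmat3 at −0.42 (SE 0.14), and the list median was −0.03. The p53 gene Trp53 itself had a log2 fold change of −0.07 (95% interval −0.30 to 0.17), and Cdkn1a, its best known target, one of −0.06 (95% interval −0.34 to 0.23), both named after their values were seen.

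**Figure D5:**
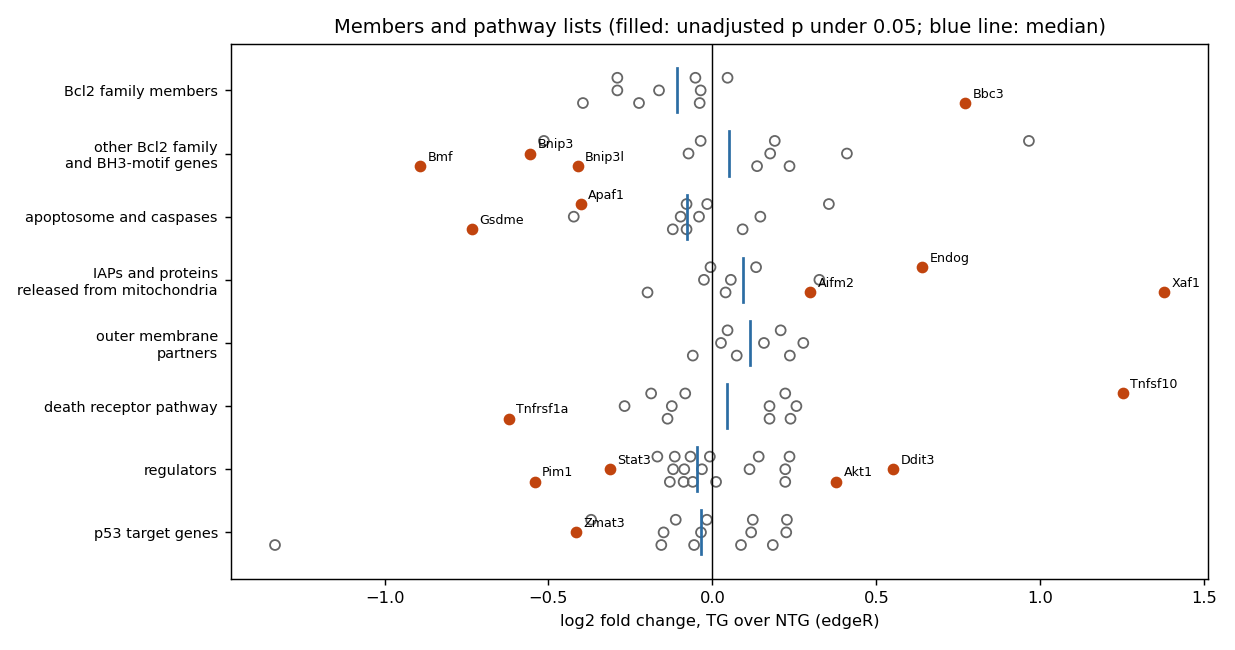
Log2 fold change of TG over NTG for the members and the tested genes of 7 pathway lists (points: genes, filled at an unadjusted edgeR p under 0.05; blue lines: list medians). Bbc3 lies at 0.77 and the other 9 members between −0.39 and 0.05, and the list medians lie between −0.11 and 0.12.

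Across all genes outside the lists, the profile of Bbc3 over the 6 libraries was followed most closely by Glrx5, Ndufb8 and Slc26a10. The root mean square difference of their centred log2 CPM from that of Bbc3 was 0.0837, 0.0883 and 0.0886, against a median of 0.504 over genes. They were chosen as the smallest differences, so their distance from that median follows from the choice. Glrx5, a mitochondrial protein of iron-sulphur cluster assembly, had 67.9, 51.7 and 56.3 CPM in NTG and 116, 83.6 and 88.5 CPM in TG. Ndufb8, a subunit of respiratory complex I, had 179, 127 and 140 CPM in NTG and 308, 197 and 244 CPM in TG. That NTG 1 and TG 1 were the highest of their groups, as with Bbc3, follows from this choice. Whether Bbc3 and these genes are linked was not tested. Mitochondrially encoded genes took the largest share of counts in the same libraries, 19.2% in NTG 1 and 21.5% in TG 1, and their part in the level of Bbc3 was not tested.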

How the data were processed

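Left ventricular poly(A) RNA of 3 TG and 3 NTG mice was sequenced on an Illumina NovaSeq platform. The deposited values are raw read counts per gene, which the authors obtained with HISAT2 and featureCounts. The submitters' processing notes name the human build GRCh38, but the identifiers and coordinates are of mouse: 54495 of 54532 IDs were in GENCODE M21 (GRCm38), 98.2% of genes with identical coordinates. The strand setting is not given in the sources used here.

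Counts were fitted over all genes with edgeR 4.0.16 (R 4.3.3; TMM, filterByExpr, robust quasi-likelihood test), and p-values were adjusted by Benjamini-Hochberg over 14774 genes. Genes were called at an adjusted p below 0.05 with an absolute log2 difference above 0.5, the study's thresholds. CPM were scaled by TMM. Fits were tested on simulated data. Alternatives (20) included DESeq2 1.42.0, limma-voom (limma 3.58.1), other scalings and filters, a length offset and each library left out. Text names all members, Hint2, from each list the 2 genes with the smallest p per direction under 0.05 (otherwise 1), and the 3 profiles nearest to Bbc3; others are named as markers, overlapping or untested genes, or are marked as chosen after their values were seen. The members and lists were chosen with earlier results of these data known. Groups come from the sample labels, and no deposited sample column was left unmatched.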

Additional observations from a re-analysis of the deposited data

How the results depend on the processing

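Of 200 member values over 20 alternatives, 193 kept their direction and 1 passed the call, Bbc3 under DESeq2 without NTG 1 (members called higher: 1, where 11.7% of all genes were called). The 7 reversals concerned Bcl2l1 (0.015 without NTG 3 and 0.120 without TG 2), Bax (0.054 without NTG 2), Bak1 (0.034 without TG 3) and Bad (−0.040 by library size alone, −0.026 without NTG 1 and −0.018 in DESeq2 without NTG 1). The cause was not tested. With a library left out, these 4 ranged from −0.188 to 0.120 (Bcl2l1), −0.138 to 0.054 (Bax), −0.148 to 0.034 (Bak1) and −0.026 to 0.102 (Bad). With a library left out, members at an unadjusted p under 0.05 ranged from 0 to 1 of 10 in each direction, where 10.4% to 27.0% of all genes lay in either direction: Bbc3 was lost without TG 1, and 1 lower member was gained without NTG 2 or TG 2 (Bcl2) or without NTG 3 (Bcl2l11). Genes called higher and lower over the whole table, 0 and 0 by edgeR, were 116 and 116 with no low-count filter, 228 and 355 by DESeq2, 219 and 348 by DESeq2 without the filter, 0 to 404 and 0 to 432 with a library left out (the highest without NTG 1), and 896 and 877 by DESeq2 without NTG 1. Of the pathway genes, 0 were called in edgeR, 1 with no filter (0.864% of all genes), 4 by DESeq2 with the filter (3.95%) or without it (2.11%), 0 to 5 with a library left out (up to 5.52%) and 8 by DESeq2 without NTG 1 (11.7%). Pathway genes at an unadjusted p under 0.05 numbered 3 to 13 higher and 4 to 11 lower with a library left out (3 higher without NTG 2, where 10.4% of all genes lay under it in either direction, and 13 without NTG 1, where 27.0% did), and 15 higher by DESeq2 without NTG 1 (25.3%). For Hint2, the log2 fold change of 1.33 (adjusted p = 0.434) became 0.773 without NTG 1 and 0.780 in DESeq2 without NTG 1, both passing, and ranged up to 1.79 with other libraries left out. It was 2.31 in limma-voom, the largest value, and 1.77 with the replicate number as a block, neither passing. Under library size alone, the median log2 fold change of all genes was −0.09, and the difference of TG minus NTG in CPM per kb moved to −20.2 for the anti-apoptotic sum and 0.431 for the BH3-only sum (an alternative added after seeing the data). All 280 values of the 14 pathway genes named by smallest p kept their direction. These genes were chosen by p in the same libraries, so this stability is no independent support. Pathway genes named after their values were seen were not followed over the alternatives. The alternative that called genes by adjusted p alone used the main fit, so it could not change any direction, of members or pathway genes.

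Replicate numbers are shared between the groups, and the sources used here do not say whether they pair the samples. The deviations of same-numbered libraries from their group means correlated at 0.0807, 0.173 and −0.252. Those of libraries with different numbers correlated at −0.253 to 0.167. With 3 libraries per group, deviations within a group depend on one another, so these values cannot decide whether the numbers pair samples. With the replicate number as a block, 84 genes were called higher and 147 lower, with the block and a length offset 109 and 135. Members called stayed at 0 in both, pathway genes called were 1 and 0, and pathway genes at an unadjusted p under 0.05 were 11 and 16 higher and 12 and 10 lower, where 21.9% and 21.6% of all genes lay in either direction.

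Genes with under 100 reads, such as Bid, had wide intervals.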
